A study of Mus musculus with 6 samples.

Results

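The cytosolic ribosomal protein genes encode the proteins of the 60S and 40S subunits of the ribosomes that translate nuclear-encoded mRNAs. Members were the mRNA probes whose RefSeq accession led to a symbol made of Rpl or Rps and a number, with an optional letter and copy number, or to Rplp0, Rplp1, Rplp2 or Rpsa. The kinase genes of the Rps6k family do not match this pattern. The rule found 83 genes with 92 probes, among 19053 genes with a symbol on 22464 mRNA probes. Of the 83 genes, 51 encode proteins of the 60S subunit and 32 proteins of the 40S subunit. The symbols of 6 (Rpl22l1, Rpl32l, Rpl39l, Rpl3l, Rpl7l1 and Rps27l) name a paralogue, and the other 77 are called standard genes here.

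Whole testes of male C57/BL6 mice were compared at 2 ages, neonatal (6 days after birth) and adult (8 weeks old), on 3 arrays per age. The methods divide the animals of each age into 3 groups, so an array stands for a group of animals and not for a single mouse. RNA was copied with an oligo dT primer, labelled with Cy3 and read in 1 colour. At 6 days the tubules hold Sertoli cells and spermatogonia, and in the adult most cells are meiotic and haploid germ cells.

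A ribosome carries a single copy of nearly every ribosomal protein, and most of these proteins come from a single gene that is active in all cell types. Mammals have few expressed paralogues, and some of them are autosomal copies of X-linked parents. X-linked genes are silenced in spermatocytes during meiosis, and the autosomal copies Rpl10l and Rpl39l are known from male germ cells. Rpl10l was not analysed here.

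Each array was scaled by its 75th percentile of signal after background subtraction. This was 2947, 2503 and 1385 for neonatal arrays 1 to 3 and 1856, 1425 and 747.3 for the adult ones. Levels below are log2 of the signal divided by that percentile (normalized log2 signal), given for arrays 1 to 3 with the neonatal values before the adult ones. The scanner software marked 18, 18 and 65 of the 92 member probes as outlier spots on neonatal arrays 1 to 3 and 21, 16 and 63 on adult arrays 1 to 3. On the replicate 3 arrays this is 70.7% and 68.5% of the member probes, against 40.6% and 31.9% of all mRNA probes. The replicate 3 arrays of both ages were scanned together, as slide 2, and the other 4 arrays as slide 1. Outlier spots were left out of the main comparison, which needed at least 2 complete pairs of same-numbered arrays, and the comparison was repeated with them kept. Their part in the results was measured only in this way. Differences were tested with limma, and its p-values, adjusted by the Benjamini-Hochberg method over all tested probes, measure the spread between these samples. The methods' t-test is paired and uses an unadjusted p, and adjusted p-values given for it below add the same adjustment.

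The tissue labels were checked against marker genes of testis cell types, with outlier spots kept. All 9 spermatid markers were higher in adult testis, with a summed scaled signal of 0.93, 0.871 and 1.37 in the neonatal arrays and 1131, 1356 and 1539 in the adult arrays, where Prm2 was the brightest. Of 8 spermatocyte markers, 5 were higher and 1 was lower, and their summed signal went from 25.4, 22.0 and 31.9 to 273, 287 and 348, with Pgk2 the brightest. All 8 Sertoli cell markers with a probe were lower in adult testis (75.7, 78.1 and 52.7 against 18.1, 13.7 and 12, Wt1 the brightest). Of 8 spermatogonial markers, 6 were lower, 1 was higher and Gfra1 was not detected (93.8, 102 and 90.9 against 20.3, 21.7 and 17.0, Uchl1 the brightest). Leydig cell markers were higher for 3 of 7 genes and lower for 2 (31.7, 34.9 and 30.2 against 74.3, 58.2 and 55.3, Insl3 the brightest). Lower were also 3 of 5 peritubular myoid markers (21.7, 22.0 and 27.0 against 4.80, 4.35 and 6.56, Myh11 the brightest, Cnn1 not well above background) and 4 of 4 endothelial markers (7.63, 8.77 and 14.9 against 2.12, 1.76 and 3.25, Cdh5 the brightest). None of the 3 macrophage genes passed the 2-fold rule, and their summed signal was 5.14, 5.02 and 4.07 against 4.46, 4.60 and 4.35, with Mrc1 the brightest. Of 2 blood genes, 1 was higher and 1 was lower (4.67, 5.97 and 2.27 against 2.71, 2.53 and 2.06, Hba-a1 the brightest). Tissues next to the testis were looked for with striated muscle genes, of which 1 of 5 was lower (0.169, 0.111 and 0.379 against 0.125, 0.106 and 0.162, Acta1 the brightest, Tnnt3 not well above background), and with epididymal genes, of which 1 of 5 was higher (8.88, 4.31 and 12.4 against 53.2, 60.2 and 89.6, Cst8 the brightest, Lcn8 not well above background). The rise of that sum is Cst8 alone. The other 3 detected epididymal genes had negative changes that missed the test, and Crisp1 stood at 2.43 and 2.51 on neonatal arrays 1 and 3 but at -4.34 on neonatal array 2 and at -4.23, -4.37 and -5.30 on the adult arrays. Markers of several cell types therefore change with age in these samples, and in bulk RNA fewer cells of a type and less RNA per cell cannot be told apart. The part of these changes in the results on ribosomal protein genes was not tested.

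Among the ribosomal protein genes that passed the threshold for a change, all but Rpl39l had a lower signal in adult than in neonatal testis. Of the 83 genes, 81 had a signal well above background on 1 array or more, and 79 had it on all 6. With outlier spots left out, 52 genes could be tested. At an adjusted p of at most 0.05 and a fold change of at least 2, 22 of the 52 were lower in adult testis (42.3%), while 36.6% of the 15121 tested mRNA probes were lower. A single gene, Rpl39l, was higher (1.92%), against 23.3% of the mRNA probes. At the 5-fold threshold of the methods 6 of the 52 genes were lower (background 13.7%) and Rpl39l was higher (background 12.6%). In this scaling the share of lower genes is near the background and the share of higher genes is below it. The count of lower genes rests on few arrays: it was 9 without neonatal array 1 or 2 or adult array 1 and 11 without adult array 2, where fewer genes kept enough spots to be tested. No standard gene was higher at 2-fold by limma, whether the p was adjusted or not, or by the methods' t-test, and 3 of 48 had a positive change of any size at an unadjusted p of at most 0.05 in limma and 2 in the t-test.

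With outlier spots kept, 81 genes were tested. Then 41 were lower (50.6%, background 39.0%) and Rpl39l was higher (1.23%, background 23.0%). The 22 genes that were lower without these spots were all among the 41, and the other 19 were genes that could not be tested without them. On all adult arrays 49 of 81 genes were below all neonatal arrays, against 45.6% of 19310 detected mRNA probes, and 3 genes (Rpl39l, Rpl36 and Rps20) were above, against 26.9%. Groups overlapped for 29 genes.

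The median log2 change of the 48 tested standard genes was -0.65, and it was the same with Rps15a, which has only a bound, at that bound. The median over all tested mRNA probes was -0.40. With outlier spots kept the medians were -1.01 over 75 standard genes and -0.50 over all mRNA probes. The median of the standard genes varied by an SD of 0.417 over the replicate pairs. Without adult array 1 or 2 it was -1.62 or -1.55, over the 17 genes that could still be tested. The typical change also depends on how the arrays are scaled. The median over all mRNA probes was -0.73 after quantile normalization, -0.65 after a shift to the median, -0.25 with the percentile taken over detected mRNA probes, 0.03 after normexp background correction, -0.48 with no floor and -0.84 in the authors' log2 values. Set against the median of all mRNA probes, the standard genes lay lower by 0.25 in the main scaling, 0.58 after quantile normalization, 0.26 after the median shift, 0.22 with the percentile over detected probes, 0.57 after normexp, 0.17 with no floor and 0.44 in the authors' values. Their median was below 0 in each of these settings. The share of lower members moved too. It was 35 of 52 genes (67.3%, with 43.3% of all mRNA probes lower) after quantile normalization, 44 of 76 (57.9%, with 45.6%) in the authors' values and 15 of 52 (28.8%, with 26.3%) after normexp.

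Genes of the 60S subunit had a median change of -1.02 over 28 tested standard genes, and 14 of them were lower (50%, with 36.6% of all mRNA probes lower). Genes of the 40S subunit had a median of -0.48 over 20 genes, and 6 were lower (30%). With outlier spots kept the medians were -1.17 over 45 genes and -0.80 over 30 genes, with 24 (53.3%) and 14 (46.7%) lower, where 39.0% of all mRNA probes were. The difference between subunits was not tested. Changes spread widely within each subunit. With outlier spots left out they ran from -3.26 to 0.65 for 60S genes. For 40S genes, Rps15a with its bound aside, they ran from -2.02 to 0.33. With outlier spots kept the ranges were -3.92 to 0.65 for 60S genes and -3.16 to 0.33 for 40S genes. These genes share their 6 arrays and are not independent replicates.

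**Figure D1:**
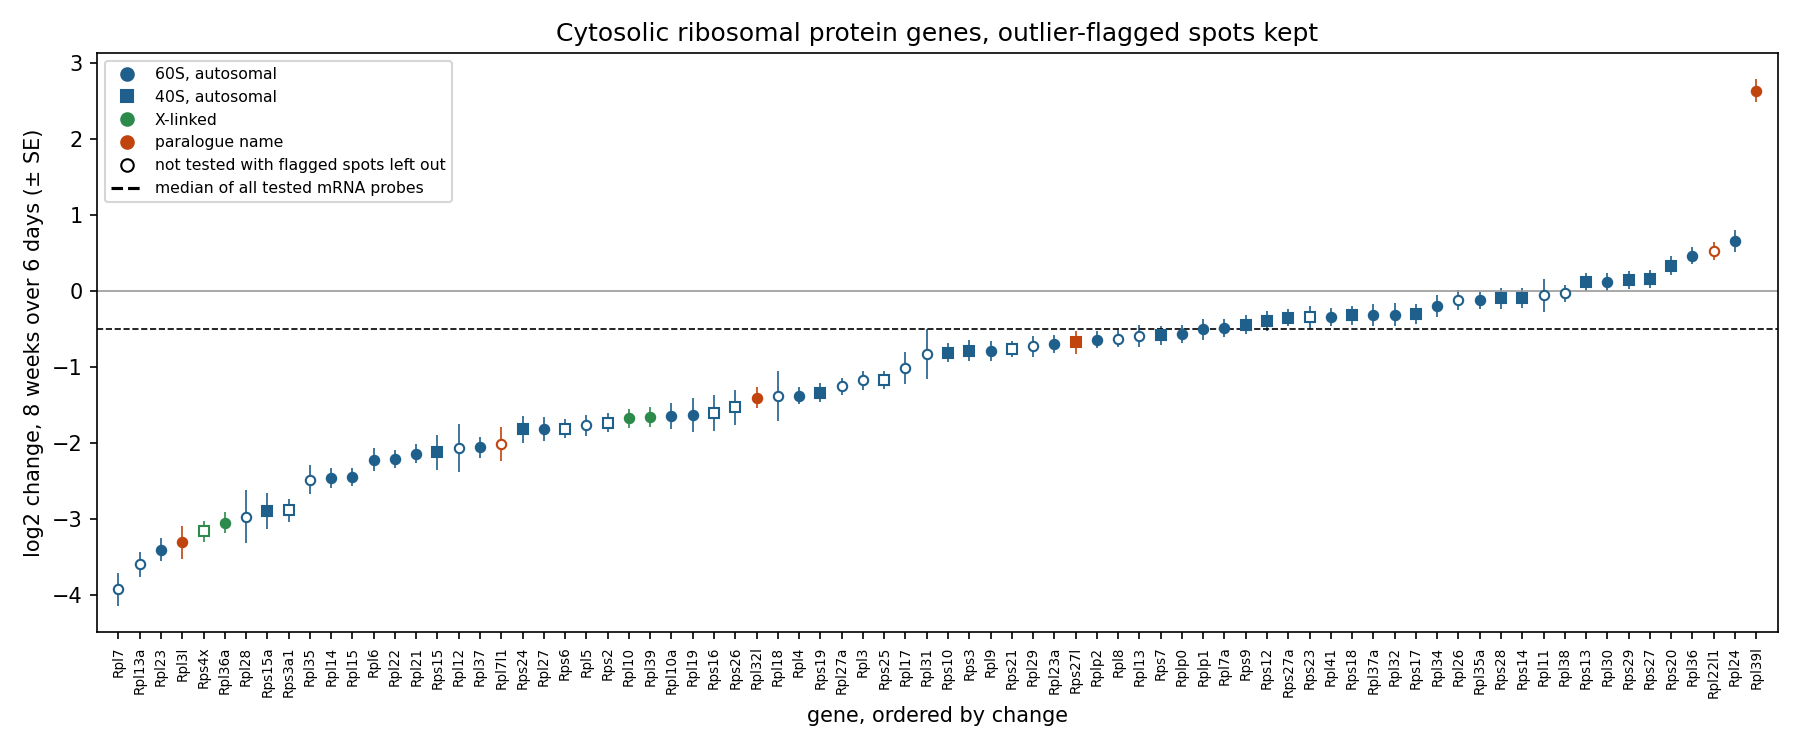
Log2 change from neonatal to adult testis (vertical axis, with SE) of 78 of the 81 cytosolic ribosomal protein genes tested with outlier spots kept, ordered by change (horizontal axis). Circles are 60S and squares 40S genes, green marks X-linked genes and orange paralogues, open symbols are genes that could not be tested with outlier spots left out, and the dashed line is the median of all tested mRNA probes, -0.50. Rpl39l stands alone at 2.63, and 69 of the 78 genes shown lie below 0, as do 72 of all 81 (adult values of Rps15a are at the floor).

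The stalk proteins recruit translation factors to the 60S subunit. Rplp0, the base of the stalk, had a normalized log2 signal of 0.56, 0.68 and 1.1 in neonatal arrays 1 to 3 and 0.08, 0.11 and 0.43 in adult arrays 1 to 3, and the groups did not overlap. Its log2 change was -0.52 ± 0.14 (SE), adjusted p = 0.0445. Rplp1, which forms dimers with Rplp2, had 7.10, 7.25 and 7.16 in neonatal and 6.57, 6.54 and 6.88 in adult arrays. Adult arrays were again all lower, with a log2 change of -0.62 ± 0.15 (SE), adjusted p = 0.0324. Rplp2 had 7.21, 7.19 and 8.12 against 6.48, 6.54 and 7.57. Here the groups overlapped, because the replicate 3 array was the highest at both ages, and within all 3 pairs the adult array was lower, with a log2 change of -0.64 ± 0.10 (SE), adjusted p = 0.00616. In this scaling all 3 stalk genes fell by less than 2-fold, and their changes lay within 0.24 of the median of all mRNA probes. After quantile normalization Rplp1 (-1.24, adjusted p = 0.00885) and Rplp2 (-1.31, adjusted p = 0.00109) passed the 2-fold rule.

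In the main comparison, the 5 largest falls among standard genes well above background on all 6 arrays belonged to the 60S subunit. Rpl23, a protein at the interface between the subunits that also binds Mdm2, had -1.78, -1.53 and -1.17 in neonatal and -4.95, -4.88 and -4.86 in adult arrays. The adult arrays lay closely together and far below the neonatal ones, and the log2 change was -3.26 ± 0.15 (SE), adjusted p = 0.000768, a 9.56-fold lower signal. Rpl36a is X-linked and is described with the other X-linked genes. Rpl14 had -0.25, -0.03 and 0.32 against -2.53, -2.65 and -2.15, a log2 change of -2.45 ± 0.17 (SE), adjusted p = 0.00175. Rpl15 had 1.63, 1.59 and 2.16 against -0.67, -0.87 and -0.42, a log2 change of -2.38 ± 0.14 (SE), adjusted p = 0.00135. For both, every adult array was below every neonatal array, and with the methods' t-test the adjusted p of Rpl14 was 0.0798. Rpl6, a 60S protein, had -3.62, -3.67 and -2.60 against -5.60, -5.84 and -5.11, without an outlier spot on any array, and a log2 change of -2.22 ± 0.15 (SE), adjusted p = 0.00054. This dim probe had a change of -0.76, short of 2-fold, after normexp background correction. Among the genes that could be tested only with outlier spots kept, Rpl7 and Rpl13a fell most. Rpl13a, often used as a reference gene in PCR, had 0.97, 0.93 and 1.23 in neonatal arrays, all outlier-marked, and -2.30, -2.96 and -2.39 in adult arrays, none of them marked, with a log2 change of -3.59 ± 0.16 (SE), adjusted p = 0.000119. Another probe for Rpl13a, from a set of repeat spots outside the mRNA probes, had 1.03, 1.1 and 0.93 against -2.20, -2.80 and -2.62. These values are means over all its spots. A repeat-spot probe was counted as outlier-marked only where every spot was marked, which this probe was not on any array. Marks on some of its spots were not counted. Its adult minus neonatal difference was -3.56, with no overlap between the ages (exact two-sided permutation test over 6 arrays, p = 0.1, the smallest p that 3 against 3 arrays can give). This probe was added after its values were seen.

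In the 40S subunit the X-linked Rps4x fell most among genes well above background on all 6 arrays, with outlier spots kept. Rps15a was not well above background on any adult array. Its neonatal levels were -4.89, -4.27 and -3.84, the adult values are at the floor of -7.22, and the signal was at least 5.67-fold lower in adult testis (adjusted p = 0.000919). That bound sets the mean of the neonatal arrays against the lowest signal that counts as well above background on each adult array. Rps6, the target of the S6 kinases, could be tested only with outlier spots kept, where its log2 change was -1.81 ± 0.12 (SE), adjusted p = 0.000315. Rps6 was chosen for description after its values were seen.

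Few standard genes had a higher adult signal. Rpl24, a 60S protein at the subunit interface, had -1.99, -1.90 and -0.42 in neonatal and -1.09, -1.25 and -0.01 in adult arrays. The groups overlapped because replicate 3 was high at both ages, but the adult array was higher in 3 of 3 pairs, and the log2 change was 0.65 ± 0.14 (SE), adjusted p = 0.0139. It passed the adjusted p and missed the 2-fold size. Set against the median of all mRNA probes its change was 1.05. Rpl36 had 5.78, 5.87 and 6.21 against 6.26, 6.29 and 6.68, with all adult arrays above the neonatal ones and a log2 change of 0.45 ± 0.14 (SE), adjusted p = 0.0601 that turned to -0.28 after quantile normalization. Rps20, which sits in the head of the 40S subunit, had 6.55, 6.70 and 6.80 against 6.86, 6.89 and 7.28, again without overlap, and a log2 change of 0.33 ± 0.11 (SE), adjusted p = 0.0574 that turned to -0.35 after quantile normalization. Rps13 and Rps27 came next, with log2 changes of 0.13 (adjusted p = 0.482) and 0.11 (adjusted p = 0.516), and both were negative after quantile normalization or a shift to the median. With outlier spots kept, Rps29 replaced Rps13 among the 5 highest, at 0.14. Its change also turned negative, to -0.55 after quantile normalization.

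All 4 X-linked members were lower in adult testis. Rps4x, a core protein of the 40S subunit, had 5.78, 5.90 and 5.69 in neonatal and 2.85, 2.66 and 2.38 in adult arrays. Outlier marks on 3 arrays left a single complete pair, so it was tested with these spots kept, and its log2 change was -3.16 ± 0.13 (SE), adjusted p = 0.0001. Rpl36a had 4.56, 4.65 and 5.27 against 1.75, 1.53 and 2.07, a log2 change of -2.97 ± 0.16 (SE), adjusted p = 0.00113. In both genes every adult array was more than 2 log2 units below every neonatal array. Rpl10, which joins the 60S subunit late in its assembly, had 6.54, 6.74 and 7.09 against 5.0, 4.88 and 5.46, no outlier spot and a log2 change of -1.68 ± 0.12 (SE), adjusted p = 0.000646. Rpl39, a small protein that lines the exit tunnel, had 6.04, 6.26 and 6.44 against 4.56, 4.59 and 4.60, a log2 change of -1.57 ± 0.15 (SE), adjusted p = 0.00348. Neither gene's groups overlapped. The methods' t-test gave an adjusted p of 0.0667 for Rpl36a and 0.0723 for Rpl39. With outlier spots kept the median change was -2.36 over the 4 X-linked genes and -0.81 over 71 autosomal standard genes. Lower signals on the X chromosome were common in general, since 64.5% of the 785 tested X-linked mRNA probes were lower at 2-fold in the same fit. The difference between X-linked and autosomal members was not tested.

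The paralogues were set against their parents through changes only, because the levels of different probes cannot be compared. For each array the log2 signal of the parent was subtracted from that of the paralogue, and this difference was compared between ages in 8 pairs. The pair Rpl32l and Rpl32 was added after the members were known. With outlier spots kept, the exact two-sided permutation test over 6 arrays gave p = 0.1 in each of the 8 pairs, the smallest p it can give, and the Benjamini-Hochberg adjusted value over the 8 pairs was also 0.1, so no pair could reach 0.05.

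Rpl39l was the only one of the 52 tested members that rose by 2-fold or more. Its levels were -2.35, -2.21 and -3.09 in neonatal arrays and 0.58, 0.31 and -0.63 in adult arrays, and every adult array was higher than every neonatal array. The signal was 6.61-fold higher in adult testis, with a log2 change of 2.72 ± 0.18 (SE), adjusted p = 0.00158, or 3.12 above the median of all mRNA probes. With the methods' paired t-test on the same values the gene kept its call at an unadjusted p of at most 0.05, and the adjusted p was 0.0819. Without adult array 1 or 2 too few unmarked spots were left to test the gene. Its parent Rpl39 fell, as described for the X-linked genes. The paralogue minus parent difference was -8.38, -8.47 and -9.53 in neonatal and -3.98, -4.28 and -5.23 in adult arrays, a shift of 4.29 ± 0.11 (SE, 2 pairs without outlier spots) or 4.30 ± 0.06 (SE, 3 pairs with them). No other of the 8 pairs shifted as far in these settings.

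Rps4l and Rpl36al are autosomal relatives of X-linked members and were read apart from the 83 genes. Rpl36al lies outside the symbol rule, and Rps4l is annotated in RefSeq as a transcribed pseudogene and was read by an lncRNA probe. Its levels were 3.81, 3.89 and 3.74 against 3.96, 3.85 and 4.0, with overlapping ages and a log2 change of 0.06 ± 0.15 (SE), adjusted p = 0.748. Its difference from Rps4x moved from -1.97, -2.01 and -1.95 in neonatal to 1.11, 1.18 and 1.62 in adult arrays, a shift of 3.29 ± 0.15 (SE, outlier spots kept). Rpl36al had 4.26, 4.48 and 3.79 against 4.60, 4.52 and 4.15, also overlapping, and a log2 change of 0.25 ± 0.13 (SE), adjusted p = 0.149, with outlier spots kept, that turned to -0.01 in the authors' values. Its difference from Rpl36a moved from -0.31, -0.17 and -1.48 to 2.85, 3.00 and 2.08, a shift of 3.30 ± 0.13 (SE). In these pairs the parent carried nearly all of the shift.

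Rpl22 has been linked to T cell development, and its paralogue Rpl22l1 can enter ribosomes in its place. Rpl22 had 3.56, 3.61 and 4.36 in neonatal and 1.45, 1.38 and 2.09 in adult arrays, without overlap, and a log2 change of -2.17 ± 0.14 (SE), adjusted p = 0.00156. Rpl22l1 was outlier-marked on all 6 arrays. With these spots kept it had 4.11, 4.16 and 3.50 against 4.69, 4.78 and 3.87, overlapping because the replicate 3 arrays were low, and a log2 change of 0.52 ± 0.12 (SE), adjusted p = 0.0158, below the 2-fold size. Their difference moved from 0.55, 0.55 and -0.86 to 3.24, 3.39 and 1.79, a shift of 2.73 ± 0.06 (SE).

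Rpl7 and Rpl7l1, a nucleolar relative of Rpl7 that takes part in making the 60S subunit, both fell with outlier spots kept. Rpl7 had 1.61, 1.5 and 0.74 against -2.02, -2.96 and -2.93, a log2 change of -3.92 ± 0.21 (SE), adjusted p = 0.000181. Rpl7l1 had -0.78, -0.50 and -1.44 against -2.38, -3.06 and -3.33, a log2 change of -2.01 ± 0.22 (SE), adjusted p = 0.0014. Neither gene's ages overlapped. Their difference rose from -2.39, -2.0 and -2.18 to -0.35, -0.10 and -0.39, a shift of 1.91 ± 0.07 (SE), since the parent fell further.

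In the other 3 pairs the paralogue had the lower change. Rpl3l, known as the striated muscle form of Rpl3, had -1.16, -1.07 and 0.73 in neonatal and -4.15, -4.14 and -3.11 in adult arrays. The groups did not overlap, no spot was outlier-marked, and the log2 change was -3.30 ± 0.21 (SE), adjusted p = 0.000511, a 9.87-fold lower signal in adult testis. The striated muscle markers Ckm, Acta1, Myh4, Mylpf and Tnnt3 did not fall together: 1 of them, Mylpf, was called lower (at least 3.51-fold), and their part in the Rpl3l result was not tested. Rpl3, a core protein near the peptidyl transferase centre, had 5.93, 6.17 and 6.66 against 4.76, 4.86 and 5.62, with a log2 change of -1.17 ± 0.12 (SE), adjusted p = 0.00111, outlier spots kept. The difference went from -7.09, -7.24 and -5.93 to -8.91, -9.0 and -8.73, a shift of -2.13 ± 0.34 (SE). Rps27l, a target of p53, had 4.20, 4.14 and 4.29 against 3.78, 3.50 and 3.34, all adult arrays lower, and a log2 change of -0.54 ± 0.15 (SE), adjusted p = 0.0504, which misses the threshold. Its adjusted p was 0.0145 with outlier spots kept, still below 2-fold in size, and after quantile normalization it passed both thresholds (-1.26, adjusted p = 0.0071). Its difference from Rps27 went from -1.93, -2.19 and -2.10 to -2.53, -2.88 and -3.30. Rps27 itself had 6.13, 6.33 and 6.39 against 6.31, 6.38 and 6.64, with overlapping ages. Rpl32l had -2.26, -2.19 and -2.15 against -3.59, -3.44 and -3.79, a log2 change of -1.29 ± 0.14 (SE), adjusted p = 0.00482, which was -0.77 and short of 2-fold after normexp. Its parent Rpl32 had 6.33, 6.87 and 6.91 against 6.35, 6.40 and 6.43 and a log2 change of -0.23 ± 0.19 (SE), adjusted p = 0.355. The shift of the difference was -0.83 ± 0.18 for Rps27l and -1.09 ± 0.16 for Rpl32l (SE, outlier spots kept). A probe for a paralogue can also bind the mRNA of its parent or of pseudogenes, which was not tested.

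**Figure D2:**
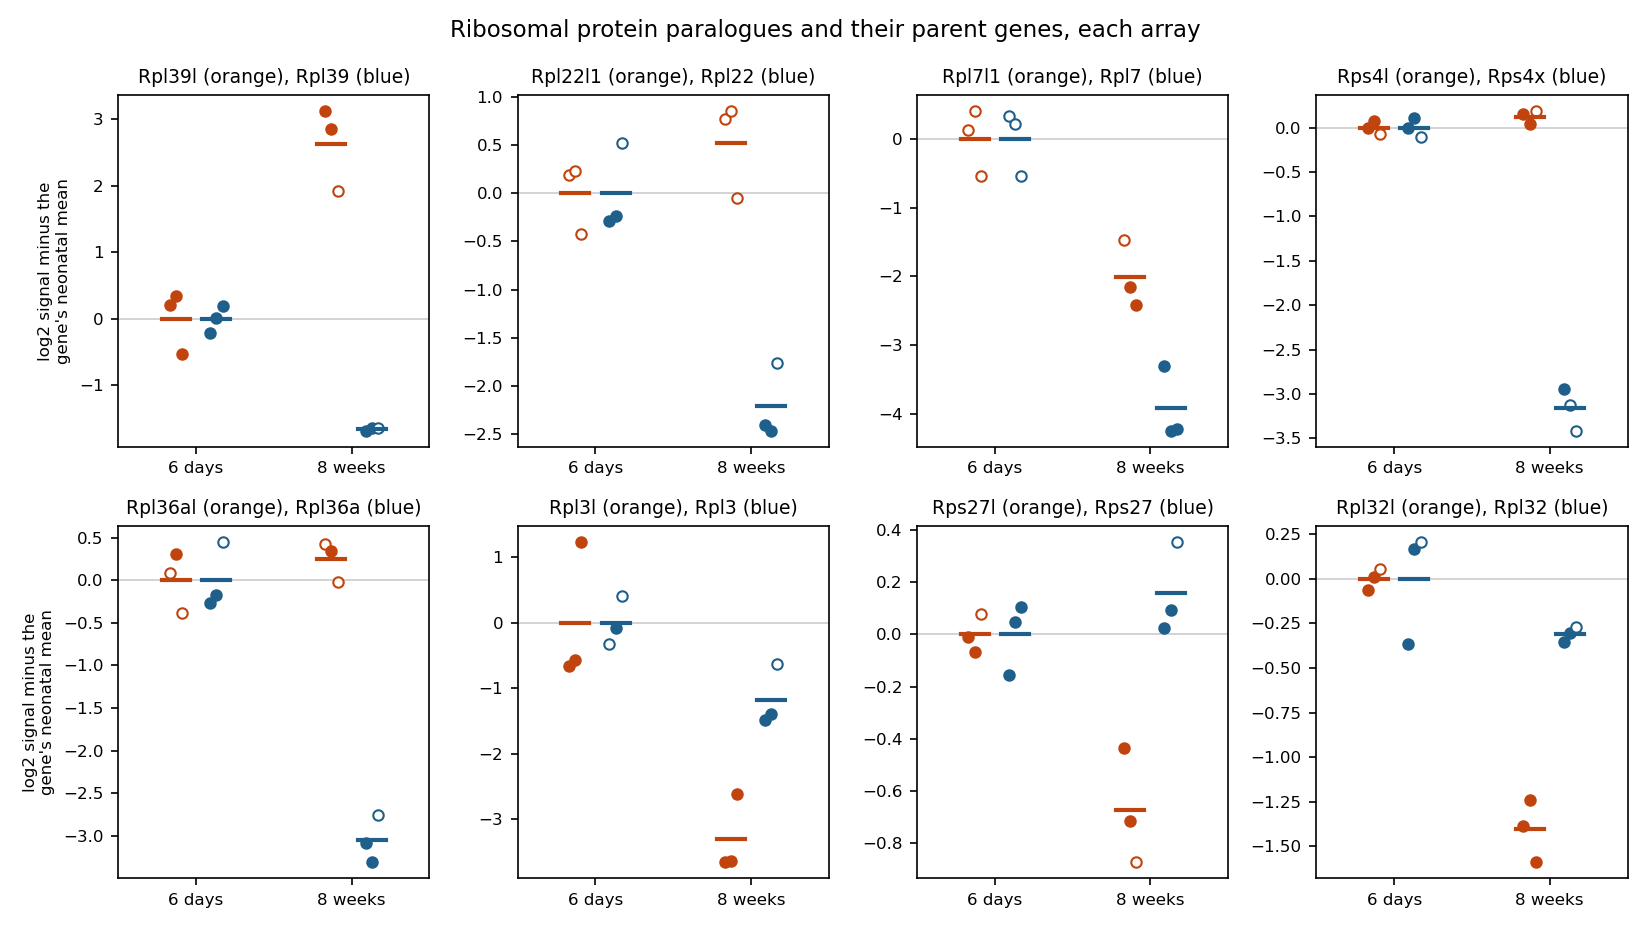
Normalized log2 signal on each array minus the neonatal mean of the same gene (vertical axis, a scale of its own in each panel) for 8 paralogues (orange) and their parents (blue) at 6 days and 8 weeks. Points are arrays, open where the scanner marked the spot as an outlier, and bars are means of 3 arrays. Rpl39l rises by 2.63 while Rpl39 falls by 1.66, and Rps4l and Rpl36al lie near 0 while Rps4x and Rpl36a fall by more than 3 log2 units.

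Some members could be measured only in part. The probe for Rpsa, a 40S protein also known as a laminin receptor precursor, had no signal well above background and was not tested. Rpl37 was well above background on 3 neonatal arrays and 1 adult array. Outlier marks on the probe that stands for the gene kept 29 genes out of the main test. Among them are Rpl11, Rpl12, Rpl13, Rpl13a, Rpl17, Rpl18, Rpl22l1, Rpl26, Rpl27a, Rpl28, Rpl29, Rpl3, Rpl31, Rpl35, Rpl38, Rpl5, Rpl7, Rpl7l1 and Rpl8 of the 60S subunit, and Rps16, Rps2, Rps21, Rps23, Rps25, Rps26, Rps3a1, Rps4x and Rps6 of the 40S subunit. With their spots kept, 19 of the 29 were lower at 2-fold, where 39.0% of all mRNA probes were. Several probes were available for 6 genes. The 3 probes for Rps24 gave log2 changes of -1.82, -1.87 and -1.84, and the 2 probes for Rpl19 gave -1.39 and -1.44. For Rps27a the probes differed, at -0.35 and -0.93 with outlier spots kept, and for Rpl34 at -0.20 and -0.77. The probes for Rpl35a lay between -0.37 and -0.12 and those for Rpl38 between -0.40 and 0.06 on the same values. Rpl38 has another probe that could be tested with outlier spots left out, with a log2 change of 0.00 (adjusted p = 0.997).

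The genes that work with ribosomal proteins were examined in 5 lists, which held 36 lower and 15 higher genes in all. Without replicate 1 or replicate 2, with fewer arrays and fewer genes that could be tested, these counts were 10 and 1. The part of each in this drop was not tested. The counts were 59 and 8 after quantile normalization and 68 and 19 with outlier spots kept. In the main comparison 3, 32, 32, 10 and 45 genes of the 5 lists were tested, in the order below. There 36.6% of all mRNA probes were lower and 23.3% higher. After quantile normalization 43.3% of all mRNA probes were lower and 3202 of 15121 higher. With outlier spots kept 39.0% were lower and 23.0% higher. The first list holds ribosomal proteins made as fusions and the scaffold of the small subunit. Fau, which encodes a 40S protein fused to a ubiquitin-like protein, had a log2 change of 0.02 (adjusted p = 0.912). Rack1, a scaffold for kinases on the small subunit, fell from -1.57, -1.52 and -1.80 to -3.86, -4.20 and -4.19, a log2 change of -2.49 ± 0.18 (SE), adjusted p = 0.00186. It was the gene of this list that passed the 2-fold rule, and with the methods' t-test its adjusted p was 0.0853.

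Translation factors moved both ways. Of 32 tested, 6 were higher and 6 were lower in adult testis, and the median change was -0.48. With outlier spots kept, 7 of 45 were higher and 13 were lower, where 23.0% and 39.0% of all mRNA probes were. The median was then -0.54. Among those tested with outlier spots left out, the largest rises were those of Eif4g3, a scaffold of the cap-binding complex (2.18), Eif4g2, which was not well above background on any neonatal array and was at least 4.13-fold higher, and Eif5 (1.85), which helps to select the start codon. The largest falls were those of the X-linked Eif2s3x (-3.66), a subunit of the factor that carries the initiator tRNA, Eif3f (-3.52) and the poly(A)-binding protein gene Pabpc4 (-3.28). The call of Eif2s3x was lost with the methods' t-test after Benjamini-Hochberg adjustment (adjusted p = 0.14) and with no filter on dim probes (adjusted p = 0.076). Its log2 change was still -3.66 in both. Larger changes came from genes that could be tested only with outlier spots kept. Pabpc2, a relative of Pabpc1, was at the floor of -7.22 on all neonatal arrays and at 5.36, 5.72 and 5.90 on the adult arrays, at least 7075-fold higher (adjusted p = 1.1e-05). Eif4a1, the helicase of the cap-binding complex, fell from 1.14, 1.16 and 1.16 to -3.19, -3.73 and -3.09, a log2 change of -4.49 ± 0.18 (SE), adjusted p = 8.24e-05. These 2 genes were chosen for description after their values were seen.

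Of 32 tested ribosome biogenesis genes, 14 were lower and 3 were higher, with a median of -0.59. Dkc1 (-3.34) and Nop56 (-2.97), which belong to complexes that modify ribosomal RNA, and Utp20 (-3.31) fell most, and Efl1 (1.88), Polr1d (1.53) and Nop10 (1.43) were the 3 that rose. Polr1d (0.74, and adjusted p = 0.0725 with the methods' t-test) and Nop10 (0.72) fell short of 2-fold after quantile normalization. The call of Utp20 was lost with the methods' t-test after Benjamini-Hochberg adjustment (adjusted p = 0.144) and with no filter on dim probes (adjusted p = 0.0792). Its log2 change was still -3.31 in both. The translation factor and biogenesis values in brackets are log2 changes with outlier spots left out, and their adjusted p lay between 0.000139 and 0.00416.

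Genes that regulate the translation of ribosomal protein mRNAs included 10 tested ones, of which 2 rose and 3 fell (median -0.31). With outlier spots kept, 2 of 14 rose and 7 fell, where 23.0% and 39.0% of all mRNA probes did. The median was then -1.03. Larp1, which binds the pyrimidine-rich start of these mRNAs, went from 3.27, 3.26 and 3.96 to 4.98, 5.10 and 5.90, a log2 change of 1.77 ± 0.14 (SE), adjusted p = 0.00244. Mtor, the kinase upstream of it, rose from 3.24, 3.09 and 3.13 to 4.40, 4.41 and 4.48, a log2 change of 1.24 ± 0.14 (SE), adjusted p = 0.0057, which fell short of 2-fold after quantile normalization (0.69) and the median shift (0.98). Mycn, a transcription factor, fell from 3.08, 3.22 and 2.76 to -1.01, -0.88 and -0.64, a log2 change of -4.10 ± 0.14 (SE), adjusted p = 0.000441. Eif4ebp1, the repressor of the cap-binding protein, and Rps6kb1, an S6 kinase, fell with log2 changes of -3.84 (adjusted p = 0.000141) and -1.27 (adjusted p = 0.00673). None of these groups overlapped between ages. With the methods' t-test the adjusted p was 0.0531 for Larp1, 0.0732 for Mtor and 0.106 for Rps6kb1. Mitochondrial ribosomal protein genes, whose products translate the mitochondrial mRNAs, numbered 45 tested of 78, with 12 lower, 4 higher and a median of -0.60, near the -0.65 of the standard cytosolic genes. Mrpl9 (-3.16) and Mrpl23 (-2.29) were among the largest falls, together with Mrpl15, which was not well above background on any adult array and was at least 5.19-fold lower. After normexp background correction the change of Mrpl15 was -0.25 (adjusted p = 0.0849), so that call is lost. With the methods' t-test the adjusted p was 0.107 for Mrpl9, 0.076 for Mrpl23 and 0.0515 for Mrpl54, and with no filter on dim probes it was 0.0502 for Mrpl9. Mrpl47 (2.26), Mrpl54 (1.44) and Mrpl53 (1.21) were the largest rises, and Mrpl53 fell short of 2-fold after quantile normalization (0.77), after the median shift (0.95) and in the authors' values (0.88).

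Ribosomal protein mRNAs are known for a start made of C and a run of pyrimidines, through which their translation responds to growth signals. Start sites were taken from RefSeq promoter windows on GRCm38.p6, from 250 bases before the start to 50 bases after it, and 63 of the 83 members had a window. A start of C followed by 4 bases that are each C or T, on the strand of the gene, was found in 14 of the 63 members (22.2%) and in 3.01% of all 27025 genes with a window (2.51% of 32851 windows). These were 13 of 57 standard genes and 1 of 6 paralogues, Rpl32l. The letters CGGAAG, searched on both strands of the whole window, were found in 42 of the 63 members (66.7%) and in 18.8% of all genes with a window (16.9% of windows). The median change with outlier spots kept was -0.81 over the 13 standard genes with the pyrimidine start and -1.38 over 43 standard genes without it that were tested, a difference that was not tested. The annotated start of a window can lie some bases from the start used in testis, and a missing match says only that these letters are not at that place. The following windows run from 10 bases before the start to 20 bases from it, with the unbroken pyrimidine run at the start in capitals. They are shown because these genes are a standard gene whose change missed the threshold (Rps27), a standard gene and a paralogue that fell (Rpl15 and Rpl32l), and the paralogue that rose with its parent that fell (Rpl39l and Rpl39).
Rps27 (chr3:90213629-90213658, minus strand): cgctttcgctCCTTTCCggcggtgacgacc
Rpl15 (chr14:18270967-18270996, minus strand): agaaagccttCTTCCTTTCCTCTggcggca
Rpl32l (chr10:20208429-20208458, plus strand): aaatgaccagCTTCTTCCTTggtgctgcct
Rpl39 (chrX:37085203-37085232, minus strand): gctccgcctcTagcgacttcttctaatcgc
Rpl39l (chr16:10170218-10170247, plus strand): aggcctttccggatttccggtggtcgccat
The start of Rps27 opens a run of 7 pyrimidines, that of Rpl15 a run of 13 and that of Rpl32l a run of 10. Rpl39 has 1 pyrimidine at the annotated start and Rpl39l none.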

How the data were processed

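Testis RNA of 3 neonatal and 3 adult groups of mice was read on Agilent 1-colour arrays, 1 array per group. The deposited scanner files hold signal intensity that the authors made with Feature Extraction 10.5.1.1, per the submitters' processing notes, background-subtracted and detrended within each array. The same deposited files hold flags of 0 and 1, and the authors' series table holds log2 values shifted per array. Values were gProcessedSignal with control and outlier-flagged spots left out, averaged over the spots of a probe, divided by the 75th percentile of the array, floored at -7.22 and set to log2. Each array held 38031 spots, of which 65.9% to 69.8% were well above background, and none of the spots was saturated.

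Symbols were found through RefSeq accessions for 21905 of 22464 mRNA probes (97.5%). limma 3.58.1 (R 4.3.3) tested the 24517 probes, 15121 of them for mRNAs, that had at least 2 complete pairs and passed the background flag on 1 array or more. Its model had a block for the replicate number and no intensity trend. Benjamini-Hochberg adjustment ran over all of them, and a call needed an adjusted p of at most 0.05 and a fold change of at least 2. Scripts ran in Python 3.11.15 with numpy 2.4.6, pandas 2.3.3, scipy 1.17.1 and matplotlib 3.10.9, and were tested on simulated data. A gene with several probes is given by the one well above background on most arrays, with ties settled by mean level. The methods use a paired test, which is where the pairing comes from. Deviations from the group means correlated by 0.500, 0.422 and 0.786 between same-numbered arrays and by 0.511 and 0.464 between different numbers of slide 1, over 4476 probes.

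Named genes are all paralogues and parents, the stalk genes and Rpsa, the X-linked members, the 5 largest rises and falls among standard members well above background on all arrays, the 3 largest called rises and falls in each of the 5 companion lists, and members that were undetected on an array or untested. Markers came in 11 lists. The members and lists were chosen with earlier results of these data known. Promoter windows are from RefSeq on GRCm38.p6. Alternatives covered the scaling, background correction (normexp with an offset of 50, on median spot signal instead of the planned mean signal), the floor, the outlier spots, the filter, the block, the prior variance, the test, the size threshold and leaving out arrays. Probes of unclear type (85) were left out, and Rpl10l was not analysed. The values of some single genes are not reported here.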

Additional observations from a re-analysis of the deposited data

How the results depend on the processing

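Depth limits the dim probes, since the lowest signal well above background was 24.0, 14.5 and 8.76 in neonatal arrays 1 to 3 and 14.2, 15.2 and 6.09 in adult arrays 1 to 3. Of 857 values of 53 named genes under the alternatives, 813 kept their direction and their side of the threshold, 27 fell short of it, 3 passed it and 14 changed sign. Those short of it were Eif2s3x, Larp1, Mrpl23, Mrpl54, Mrpl9, Mtor, Polr1d, Rack1, Rpl14, Rpl36a, Rpl39, Rpl39l, Rps6kb1 and Utp20 with the adjusted t-test, Eif2s3x, Mrpl9 and Utp20 with no filter on dim probes, Mrpl15, Rpl32l and Rpl6 after normexp, Mrpl53, Mtor, Nop10 and Polr1d after quantile normalization, Mrpl53 and Mtor after the median shift, and Mrpl53 in the authors' values. Those that passed it were Rplp1, Rplp2 and Rps27l after quantile normalization. All 14 that changed sign belong to genes that were not called. Rpl36 was at -0.28 after quantile normalization, and Rpl36al, with outlier spots kept, at -0.014 in the authors' values. Rps13 was at -0.15 in the authors' values, -0.61 after quantile normalization and -0.13 after the median shift. Rps20 was at -0.35 after quantile normalization. Rps27 was at -0.10, -0.60 and -0.15 in the same 3 settings as Rps13, and from -0.018 (without neonatal replicate 1) to 0.11 with arrays left out. Rps29 was at -0.12, -0.55 and -0.15 in those 3 settings, and at -0.0045 after normexp. The cause was not tested. The 8 paralogue minus parent changes kept their sign in the 13 to 15 settings that gave a value for each, from 4.25 to 4.96 for Rpl39l, 2.26 to 3.24 for Rpl22l1, 2.88 to 3.58 for Rpl36al, 3.13 to 3.57 for Rps4l, 1.79 to 2.00 for Rpl7l1, -2.80 to -1.72 for Rpl3l, -0.83 to -0.57 for Rps27l and -1.09 to -0.56 for Rpl32l. For Rpl22l1, Rpl36al, Rps4l, Rpl7l1 and Rpl3l, read with outlier spots kept, quantile normalization, normexp and the median shift were not run, and Rpl39l, Rps27l and Rpl32l had no value without replicate 1 or 2.

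Of the mRNA probes, 3530 were higher and 5527 lower. These counts were 1908 and 2075 at 5-fold, 2340 and 2850 with the methods' t-test after Benjamini-Hochberg adjustment, and 8439 lower in the authors' values. Leaving out arrays, with fewer probes tested, they ranged from 1672 to 3525 and from 2324 to 5408. The members higher (1) were 0 with the adjusted and 1 with the unadjusted t-test, 2 with no threshold on size and 0 to 1 with arrays left out. The members lower (22) were 41 with outlier spots kept, 44 in the authors' values, 6 at 5-fold, 14 with the adjusted t-test, 35 after quantile normalization and 9 to 22 with arrays left out. The median change of standard members (-0.65) was -1.27 in the authors' values, -1.31 after quantile normalization and -1.50 within slide 2, with 14 genes. With arrays left out it ranged from -1.62 to -0.62, the lowest values over 14 to 21 genes. The companion lists' lower genes (36) were 68 with outlier spots kept, 85 in the authors' values, 14 at 5-fold, 15 with the adjusted and 22 with the unadjusted t-test, 62 with no threshold on size, 59 after quantile normalization and 10 to 37 with arrays left out. Their higher genes (15) were 0 at 5-fold, 7 with the adjusted t-test, 23 with no threshold on size, 8 after quantile normalization and 1 to 16 with arrays left out.

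Without the replicate block the counts were 3426 and 5357 mRNA probes higher and lower, 1 and 21 members, 15 and 36 companion genes, the median was -0.66, and no named gene changed its call. In settings chosen after seeing the data, with outlier spots kept, dropping the replicate block gave 37 lower members and 66 lower companion genes, and leaving out a replicate pair gave 38 to 40 lower members, 60 to 69 lower companion genes and a median from -1.11 to -0.79. Apart from fewer probes or arrays in a fit, the cause of these shifts was not tested.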
